A study of Mus musculus with 4 samples.

Results

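Connexins are the proteins of gap junctions, and 4 connexin genes of the epidermis, Gja1, Gjb2, Gjb5 and Gjb6, were examined in mouse embryos whose epidermis carried activated beta-catenin. The members were all probe sets, groups of short probes that read a transcript, whose annotation named exactly 1 of these genes. There were 9 such probe sets among 45037 on the array. Gja1 had 6 of them, and Gjb2, Gjb5 and Gjb6 had 1 each.

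Dorsal epidermis of E15.5 embryos (embryonic day) was profiled in mutants, which carried KRT14-Cre and Ctnnb1(Ex3)fl/+, and in control littermates, whose own alleles the labels do not give. There were 2 mutant and 2 control embryos, with 1 Affymetrix MOE430 array for each. Cre, placed under a keratin 14 promoter, acts in basal keratinocytes and their descendants, and it removes exon 3 from the single floxed allele of Ctnnb1, the gene of beta-catenin. The protein then lacks the sites that mark it for destruction, so it accumulates and acts with TCF/LEF factors as in Wnt signalling. Dispase had been used to part epidermis from dermis, and the cells were not sorted.

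A connexin channel is a ring of subunits in the membrane of a cell that docks with a ring in the next cell, so that ions and small molecules such as calcium signals and second messengers pass between them. Keratinocytes use several connexins at the same time, and the set changes as cells leave the basal layer and as hair follicles form. Gja1 encodes connexin 43 (Cx43), the most widespread connexin of mammalian tissues. Gjb2 and Gjb6 encode Cx26 and Cx30, which can join in mixed channels. Gjb5 encodes Cx31.1, a connexin of stratified epithelia. In humans, dominant mutations of GJB2 cause skin disease with deafness, and those of GJB6 cause an ectodermal dysplasia with hair loss.

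Gjb2 was higher and Gjb6 was lower in mutant epidermis, while Gja1 and Gjb5 did not pass the test. Of the 4 genes 1 rose and 1 fell, and of the 9 probe sets 1 rose and 1 fell, as did 18.9% and 20.5% of all tested probe sets. The mutation altered a large part of the array: 39.4% of 28434 tested probe sets and 45.1% of 12469 tested genes passed, so that 2 of 4 genes is close to the share of genes at large. By direction, 20.6% of tested genes were higher and 24.5% were lower. The 2 arrays of a group lay apart from the 2 of the other for 71.7% of tested probe sets. Each gene is described by its brightest tested probe set, and changes are log2 fold changes, mutant minus control, from limma fitted over all tested probe sets. A gene passed at a Benjamini-Hochberg adjusted p under 0.05. These p-values measure the spread between 2 embryos per group, pooled over probe sets.

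**Figure D1:**
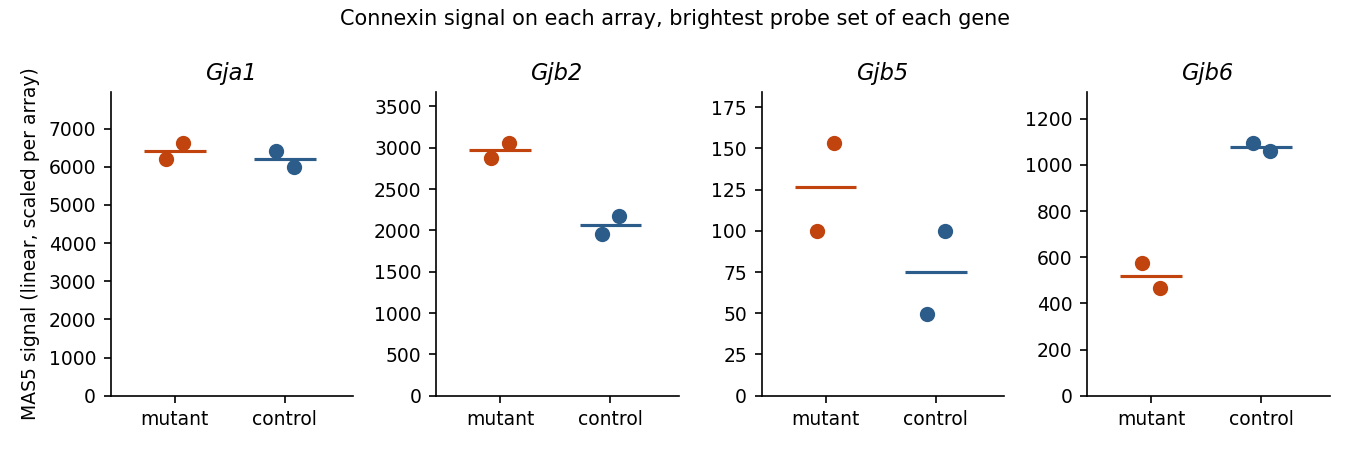
Signal of the brightest probe set of each connexin gene (linear MAS5 signal, each panel with its own axis from 0) in mutant and control epidermis. Points are single arrays, 2 per group, and lines are group means. The mutant arrays of Gjb2 lie above both controls and those of Gjb6 below both controls, whereas those of Gja1 are interleaved with the controls and 1 mutant array of Gjb5 (100.1) stands beside 1 control (99.98).

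Gjb2, the gene of Cx26, had signals of 2872 and 3062 on the mutant arrays, against 1954 and 2172 on the control arrays. Both mutants exceeded both controls, and the embryos of a group lay close together. The mean was 2967 ± 134 in mutants and 2063 ± 154 in controls (SD, n = 2 each). The log2 fold change was 0.53 ± 0.09 (SE), a 1.44-fold rise with a 95% interval of 1.24 to 1.67 (limma adjusted p = 0.00299). The call was lost when the spread was estimated without its trend on signal (limma adjusted p = 0.0546). In that setting calls over all tested probe sets also fell, from 11210 to 8310. The Gjb2 probe set was not among those the authors deposited as differing, a list that required at least a 2-fold difference between group means.

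Gjb6, the gene of Cx30, had signals of 574 and 465 on the mutant arrays, against 1096 and 1058 on the control arrays. Neither mutant reached the lower control. The mean was 519.6 ± 77.4 in mutants and 1077 ± 26.9 in controls (SD, n = 2 each). Gjb6 fell by 1.06 ± 0.12 in log2 signal (SE, 2 embryos a group), to 0.480 of the control level, with a 95% interval of 0.396 to 0.582 (limma adjusted p = 0.000347). It was the 1 member in the authors' deposited table, which was made from GCRMA values. In that authors' deposited table the ratio to the mean of the controls was 0.458 and 0.374 for the mutants, against 1.04 and 0.961 for the controls, and the fold, given there as control over mutant, was 2.42.

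Gjb2 and Gjb6 are neighbours in the genome, on the same strand, with their starts 28.9 kb apart and no other gene between them in the RefSeq gene table of GRCm38.p6. Their promoter windows are shown because the changes of this adjacent pair ran in opposite directions. Each window runs from 250 bases before the annotated start to 50 bases after it, 5′ to 3′ on the gene's own strand, and comes from RefSeq (GRCm38.p6). Capitals mark matches to any of 4 motifs: the TCF/LEF core CTTTGA, the GC box GGGCGG and the AP-1 site TGANTCA, each on both strands, and the TATA box TATAAA on the gene's strand only. No match overlapped another. The window of Gjb2 is chr14:57104653-57104952, minus strand, and that of Gjb6 is chr14:57133562-57133861, minus strand.
Gjb2: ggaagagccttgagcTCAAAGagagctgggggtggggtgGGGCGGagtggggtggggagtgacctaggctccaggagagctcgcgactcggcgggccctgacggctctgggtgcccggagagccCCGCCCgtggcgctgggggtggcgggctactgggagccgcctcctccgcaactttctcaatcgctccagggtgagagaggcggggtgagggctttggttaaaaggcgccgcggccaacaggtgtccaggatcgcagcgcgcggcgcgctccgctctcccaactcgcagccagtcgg
Gjb6: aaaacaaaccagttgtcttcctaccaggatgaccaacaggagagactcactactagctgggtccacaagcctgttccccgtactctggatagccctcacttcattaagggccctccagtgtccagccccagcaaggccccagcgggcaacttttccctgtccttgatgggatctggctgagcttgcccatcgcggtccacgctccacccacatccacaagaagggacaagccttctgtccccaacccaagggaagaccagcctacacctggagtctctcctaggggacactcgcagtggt

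The Gjb2 window held 1 TCF/LEF core, read on the opposite strand, and 2 GC boxes, and its GC content was 70.0%. The Gjb6 window held none of these motifs and had a GC content of 57.3%. The windows of Gja1 and Gjb5, not printed, held 1 AP-1 site and 2 TCF/LEF cores, in that order. Of 32851 mouse promoter windows of 300 bases in the same table, 16% held the TCF/LEF core, 35.7% the GC box, 7.81% the AP-1 site and 8.32% the TATA box. A match describes letters in the window, and other starts of a gene were not searched.

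Because both genes were read on the same arrays, their changes were also set against each other. The log2 signal of Gjb2 minus that of Gjb6 was 2.32 and 2.72 in mutants, against 0.83 and 1.04 in controls. The ratio of the signals was 3.0-fold higher in mutants. The groups did not overlap, which follows from the separate changes of Gjb2 and Gjb6 and is no further support for them. The exact permutation test over arrays (two-sided) gave p = 0.333, the smallest that 4 arrays allow, and 0.5 after Benjamini-Hochberg adjustment over the 6 pairs of members. Gja1 minus Gjb6 (1.11), Gjb5 minus Gjb6 (1.88) and Gja1 minus Gjb2 (-0.48), each a difference of log2 changes, likewise did not overlap between groups. Each reached the smallest p of 0.333 by the same test. Both Gjb5 mutants lay above both Gjb5 controls, so the separation of Gjb5 minus Gjb6 also follows from the single genes. Gja1 minus Gjb5 and Gjb2 minus Gjb5 overlapped between groups (p = 0.667 each by the exact permutation test).

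Gja1, the gene of Cx43, had signals of 6202 and 6636 on the mutant arrays, against 6428 and 5996 on the control arrays, on its brightest probe set. The lowest array was a control and the highest a mutant, and the groups overlapped. The log2 fold change was 0.05 ± 0.08 (SE, n = 2 per group; limma adjusted p = 0.686), and its 95% interval allowed from 0.904 to 1.18 of the control level. Its sign turned with single arrays and with median centring.

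Of the 6 Gja1 probe sets, 5 had signals between 3941 and 6636 on every array. Their log2 changes ran from -0.13 to 0.05 with a median of -0.03, with 3 below 0 and 2 above it, and their 95% intervals together spanned -0.32 to 0.24. The probe set with the lowest change had 4208 and 3941 in mutants against 4402 and 4509 in controls (-0.13 ± 0.08, SE; limma adjusted p = 0.240). It was the only one of these 5 whose groups did not overlap. Of the 5 probe sets, 3 carry the suffix _x_at, by which the maker marks probes that can bind related transcripts. The remaining probe set was weak and uneven, with 163 and 64.6 in mutants against 43.5 and 102 in controls. Its embryos differed within each group by more than the groups did (0.63 ± 0.49, SE; limma adjusted p = 0.351), so it gave little information on Gja1.

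**Figure D2:**
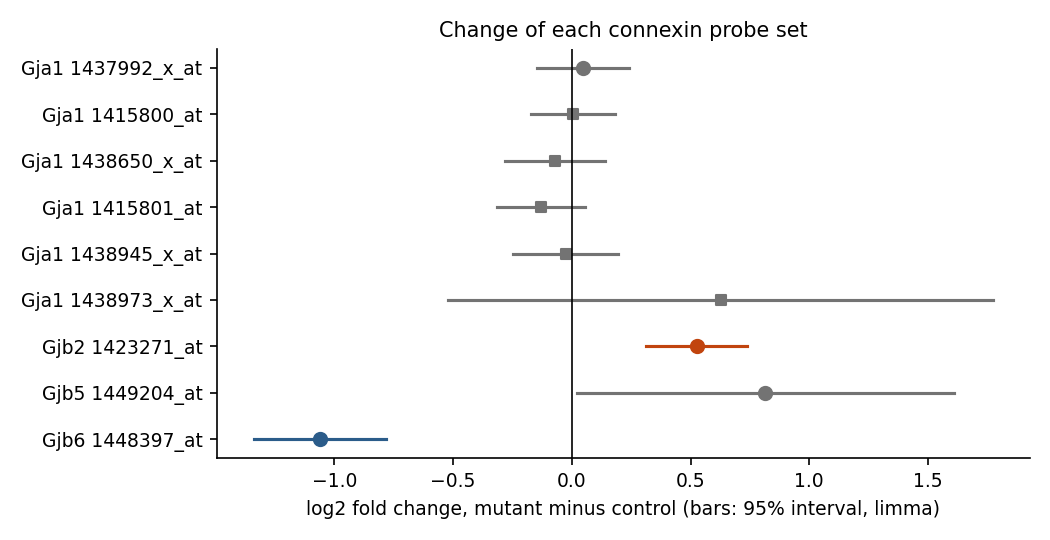
Log2 fold change, mutant minus control, of the 9 connexin probe sets. Circles mark the probe set that stands for a gene, squares the others, and bars are 95% intervals from limma with 2 arrays per group. Orange is higher, blue lower and grey not passing. The 5 bright Gja1 probe sets lie between -0.13 and 0.05, Gjb2 at 0.53 and Gjb6 at -1.06, and the weakest Gja1 probe set and that of Gjb5 have wide intervals.

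Gjb5, the gene of Cx31.1, had signals of 100.1 and 153.5 on the mutant arrays, against 49.6 and 99.98 on the control arrays. The higher control and the lower mutant were nearly equal, and the controls differed by 1.01 on the log2 scale, more than the groups did. The mean was 126.8 ± 37.8 in mutants and 74.8 ± 35.6 in controls (SD, n = 2 each). The log2 fold change of 0.82 ± 0.34 (SE) did not pass (limma adjusted p = 0.0956), and its 95% interval ran from 1.02-fold to 3.05-fold. The value rested on single arrays: it was 1.32 without control 2 and 1.12 without mutant 1, both past the threshold (limma adjusted p = 0.0131 and 0.0462), and 0.31 without control 1 and 0.51 without mutant 2, neither past it.

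**Figure D3:**
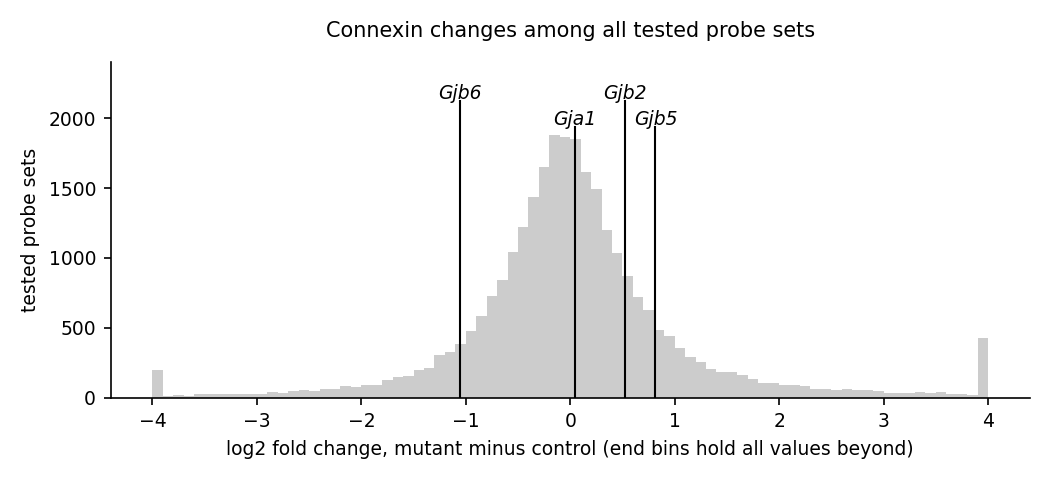
Distribution of log2 fold changes, mutant minus control, over 28434 tested probe sets in bins of 0.1, with the brightest probe set of each connexin gene marked. Gja1 stands in the middle of the distribution (median of all tested probe sets -0.03), Gjb2 and Gjb5 on its right side and Gjb6 on its left, and none lies in the far tails.

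The change of Gjb6 was lower than that of all but 9.69% of tested probe sets, and that of Gjb2 was higher than or equal to 77.9% of them. Among all tested genes the median change was -0.06, and the middle 50% ran from -0.50 to 0.38. Gja1 thus lay inside the middle range, and Gjb2, Gjb5 and Gjb6 outside it.

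The genes most like each member were taken by the distance between log2 signals centred over the 4 arrays, among 10666 genes above the 40th percentile on every array. With 4 arrays, likeness is mostly that of the change between groups, and no p is attached. For Gjb2 they were Tmem198b (distance 0.016), Ubn2 (0.026) and Serp1 (0.027), whose log2 changes were 0.51 to 0.55. For Gjb6 they were Zfp74 (0.040), Wwox (0.041) and Cenpw (0.041), which changed by -1.04 to -1.02. The genes nearest to Gja1 were Tssc4 (0.0078), Gins4 (0.011) and Hspd1 (0.015), and those nearest to Gjb5, at larger distances, were Gata2 (0.106), Scyl2 (0.166) and Fetub (0.174).

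Among the other channel genes of this family, connexins and the related pannexins, 13 of 19 listed genes had a probe set that named them alone. Of these 13, 3 were bright enough to be tested, of which 2 rose, 0 fell and 1 did not pass (66.7% called, against 45.1% of all tested genes). The median change of the 3 was 1.10. Gja3 was tested only through its mutant arrays, where it was high, so this share is not read as a result about the family. With probe sets required above the 40th percentile on all 4 arrays, 1 of 2 tested genes passed. Gja3, known as Cx46 and best studied in the eye lens, had signals of 231 and 252 in mutants, against 5.35 and 9.25 in controls. Both controls lay below the arrays' 40th percentiles, taken here as background, so that Gja3 was at least 16.6-fold higher in mutants. A second, dimmer Gja3 probe set was at least 3.50-fold higher. Its signals were 39.9 and 64.8 in mutants, against 1.66 and 4.23 in controls. The limma tests used the control signals below background as they stood, with log2 changes of 5.10 and 4.26 (limma adjusted p = 1.45e-05 and 0.00172). Both probe sets were tested only through their mutant arrays.

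In the authors' deposited table these Gja3 probe sets had a fold, control over mutant, of 0.0148 and 0.217. Panx1, a channel that releases ATP from cells, had signals of 266 and 278 in mutants, against 126 and 128 in controls. It rose by 1.10 ± 0.12 in log2 signal (SE, 2 embryos a group), or 2.14-fold (limma adjusted p = 0.000354), and the groups were far apart. Gjc1, the gene of Cx45, had 231 and 190 in mutants, against 204 and 202 in controls (0.05 ± 0.14, SE; limma adjusted p = 0.823), and its other probe set had 0.53 ± 0.21 (limma adjusted p = 0.0802). That value rested on single arrays: it was 0.78 without control 1 and 0.73 without mutant 2, both past the threshold (limma adjusted p = 0.0326 and 0.0373), and 0.28 without control 2 and 0.32 without mutant 1, neither past it.

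The remaining 10 genes were set aside as dim: Gja4, Gja5, Gja10, Gjb1, Gjc3, Gjd2, Gjd4, Gje1, Panx2 and Panx3. Their 15 probe sets, which include every Gjb1 probe set, did not exceed a signal of 12.3 on any array, whereas the 40th percentiles were 14.4 to 16.1. Gja4 and Gja5 are connexins of blood vessels. Of 8 endothelial markers, Pecam1, Cdh5, Tek, Tie1, Emcn and Cldn5 were below the 40th percentile on all 4 arrays. Kdr lay above it on 1 mutant (18.0) and 1 control array (24.6), and Esam on 1 mutant array (17.2).

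**Figure D4:**
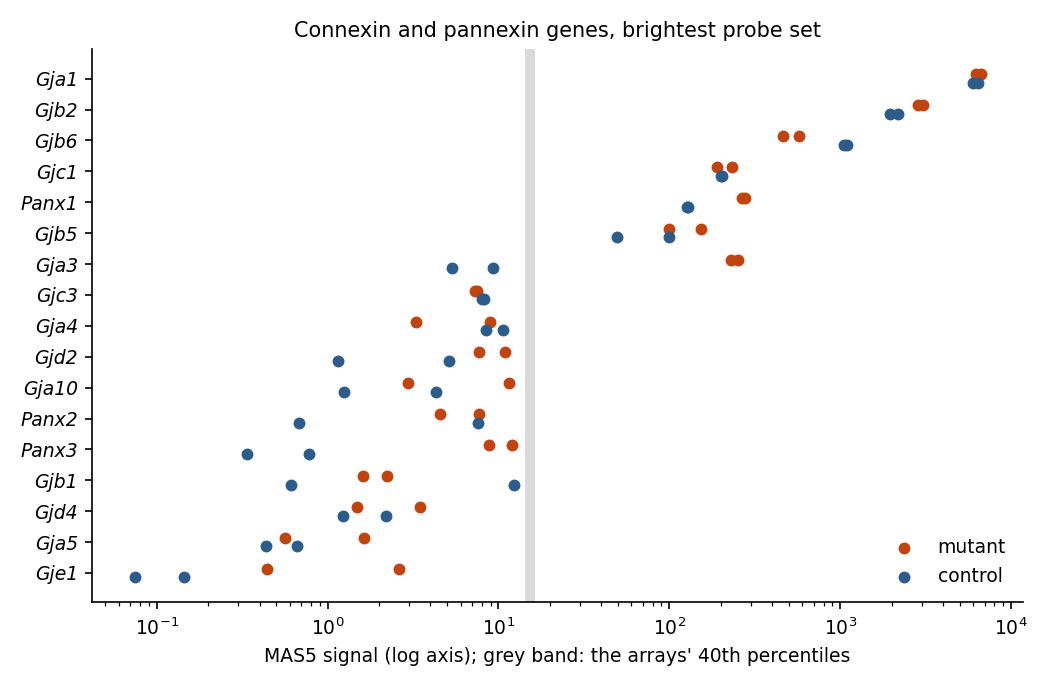
Signal of the brightest probe set of 17 connexin and pannexin genes on each array (log axis), mutants in orange above controls in blue, with the arrays' 40th percentiles (14.4 to 16.1) as a grey band. Genes are ordered by mean signal, which does not rank their transcripts, since probes of different genes bind unequally. Gja3 is the 1 gene with both controls left of the band and both mutants right of it, and 10 genes lie left of it on every array.

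Of 20 listed partners of connexins, proteins that bind, carry, phosphorylate or degrade them, 17 were measured, of which 6 rose, 6 fell and 5 did not pass (70.6% called, against 45.1% of all tested genes). Some of those called, Ccn3 among them, were dim on both arrays of a group and were tested only through the group where they were high. With probe sets required above the 40th percentile on all 4 arrays, 4 rose and 5 fell of 14 tested genes. In that setting 9988 of all 23438 tested probe sets passed. Without the intensity trend 5 partners rose and 3 fell, while calls over all 28434 tested probe sets also dropped, from 11210 to 8310. The median log2 change of the 17 partners was 0.22, against -0.06 for all tested genes. Cav1, caveolin-1, which binds Cx43, had 755 and 684 in mutants, against 1624 and 1560 in controls, and fell by 1.15 ± 0.09 in log2 signal (SE, 2 embryos a group; limma adjusted p = 6.65e-05). Cdh1, E-cadherin, whose adhesion precedes the assembly of gap junctions between keratinocytes, had 1914 and 2002 in mutants, against 3273 and 3125 in controls, and fell by 0.71 ± 0.08 (SE; limma adjusted p = 0.000399). Neither gene overlapped between groups.

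Ccn3, a secreted protein that binds Cx43, had 140 and 64.7 in mutants, against 9.37 and 7.60 in controls, and was at least 6.57-fold higher. Its limma test used the control signals below background as they stood (log2 change 3.50, limma adjusted p = 0.000452). Prkca, a protein kinase C that phosphorylates Cx43, had 122 and 112 in mutants, against 45.5 and 50.2 in controls, and rose by 1.29 ± 0.18 (SE, n = 2 per group; limma adjusted p = 0.00104). These 4 had the largest moderated t of the list. Tjp1, the scaffold ZO-1 that holds connexins at junction margins, was picked after its values were seen: it had 1232 and 1118 in mutants, against 1080 and 1157 in controls, and did not pass (0.07 ± 0.10, SE; limma adjusted p = 0.595). The mutated gene itself, Ctnnb1, stands in this list and is counted among those that rose (0.47 ± 0.08, SE, limma adjusted p = 0.00306). It had 6907 and 7323 in mutants, against 5311 and 4940 in controls. The other Ctnnb1 probe sets rose by 0.72 ± 0.08 and 0.89 ± 0.08 (SE, limma adjusted p = 0.000305 and 0.00012). Its probe sets were not placed relative to exon 3, so they do not check the genotype.

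Markers of keratinocyte states and of other cells moved on the same arrays, and their part in the connexin results was not tested. In bulk tissue, fewer cells of a type and less RNA per cell cannot be told apart. Of 11 tested suprabasal keratinocyte markers 10 fell and 1 rose, and their summed signal was 11289 and 11379 in mutants, against 56175 and 57465 in controls. All 11 hair matrix and shaft markers rose, with sums of 43700 and 53774 in mutants, against 825 and 782 in controls. Of these, Krt31, Krt33a, Krt33b, Krt35 and Krt86 were dim in both controls and were tested only through the mutant arrays, where they were high.

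Of 8 general keratinocyte markers 2 rose, 4 fell and 2 did not pass, with sums of 19982 and 21828 in mutants, against 27662 and 27065 in controls, and none was below the 40th percentile on all arrays. Melanocyte markers rose in 9 of 9, with sums of 5371 and 6550 in mutants, against 1782 and 1797 in controls. Among them Tyrp1 was dim in both controls and was tested only through the mutant arrays. Of 2 tested Schwann cell and neuron markers 1 rose and 1 fell, with sums of 1747 and 1682 in mutants, against 1238 and 1186 in controls. Of 8 tested dermal fibroblast markers 1 rose, 4 fell and 3 did not pass, and Pdgfra was below the 40th percentile on all arrays. Their sums were 3733 and 4183 in mutants, against 7153 and 8626 in controls. The difference in these sums was mostly that of Postn, with 11.3 and 29.6 in mutants, against 3590 and 4302 in controls. Dcn, the 1 marker that rose, had 3444 and 3704 in mutants, against 2908 and 2900 in controls. Sums of endothelial (59.5 to 84.9), macrophage (62.1 to 137), skeletal muscle (38.2 to 58.9) and red blood cell markers (8.18 to 28.3) were low on all 4 arrays.

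The direction of the Gjb2 and Gjb6 changes held in every setting tried, as the plot by setting shows.

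**Figure D5:**
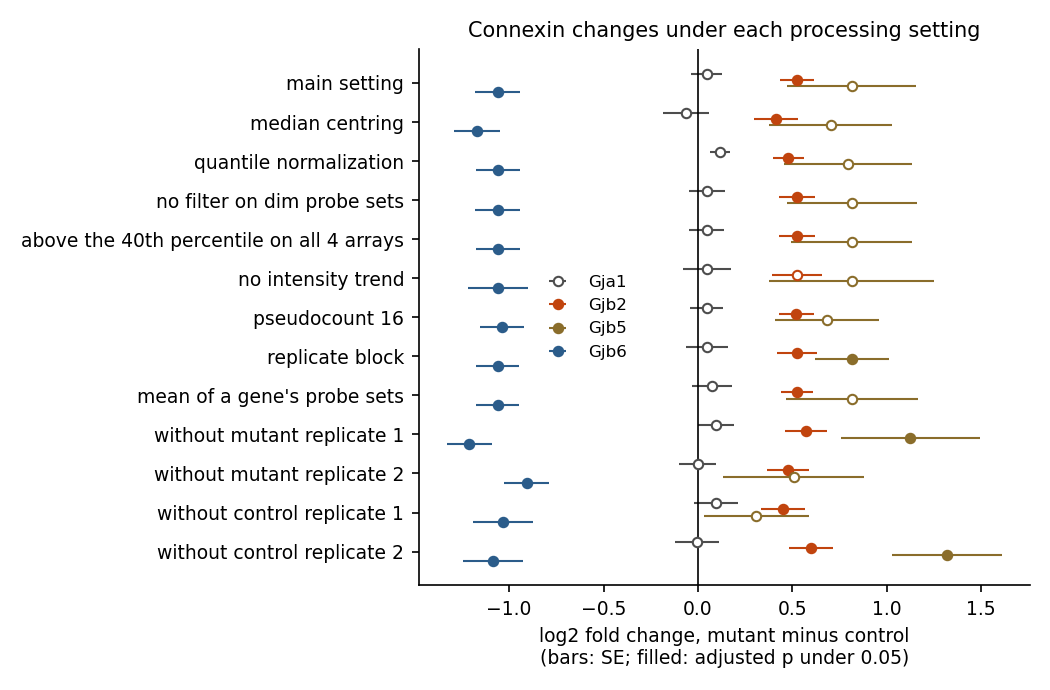
Log2 fold change, mutant minus control, of the 4 connexin genes (points) with its SE (bars) under the main setting and 12 alternatives, down the page. Filled points passed an adjusted p of 0.05 and open points did not. Gjb6 stays between -1.21 and -0.91 and Gjb2 between 0.41 and 0.60, Gja1 stays within 0.12 of 0, and Gjb5 ranges from 0.31 to 1.32.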

How the data were processed

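Tests used the deposited intensity of every probe set. GCOS and MAS5 made it, per the submitters' processing notes, in versions not given in the sources used here. Intensity was linear, and since the trimmed mean (2% off either end) was 149 for all 4 arrays, no further normalization was applied. The authors' second table holds ratios from GCRMA values, kept, per the file headers, where a probe set was Present on at least 2 of 4 arrays and differed at least 2-fold.

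The array's 64 control probe sets, of 45101, were dropped. The test took probe sets that exceeded the 40th percentile of 2 or more arrays, and lower ones are called dim. Genes were named from the platform annotation, with symbols updated through Entrez identifiers; probe sets naming several genes (932) or none (9160) named no gene. The sources name no genome build for the arrays.

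Log2 intensities were compared with limma (version 3.58.1, R 4.3.3) (lmFit, then eBayes with its trend option), two-sided. An "at least" fold sets the bright group's mean log2 signal against, for the dim group, the mean of the higher of the 40th percentile and the signal on each array. The code was tested on simulated data. Named genes were the members, the measured channel genes, 4 partners with the largest moderated t, and the 3 nearest genes per member; Ctnnb1 was named as the mutated gene, cell type markers as context, and Tjp1 after its values were seen. The members and lists were chosen with earlier results of these data known. The labels give no litter for any embryo, so it is not known whether replicate numbers pair the embryos, and the main test did not treat them as pairs. Deviations from the group mean correlated at 0.015 between arrays of the same number, which cannot show that embryos were unpaired. Each array had its own fluidics module on 1 station and scanner. The number of arrays limits the precision.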

Additional observations from a re-analysis of the deposited data

How the results depend on the processing

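Settings varied were the normalization between arrays, the filter on dim probe sets, the intensity trend, a pseudocount of 16, the mean of a gene's probe sets, the replicate number as a block, and each array left out. Gjb6 kept its direction and its call in all 12 (-1.21 to -0.91). Gjb2 kept its direction in all 12 (0.41 to 0.60) and its call in 11. Without the intensity trend it had 0.53 (limma adjusted p = 0.0546), and 1 member gene passed in place of 2. Calls over all tested probe sets fell as well without the trend, from 11210 to 8310. Gja1 passed in none, and turned to -0.064 with median centring, which moved the median change of all genes to -0.17, against -0.06. With single arrays left out Gja1 ran from -0.0028 to 0.098, Gjb5 from 0.31 to 1.32, and the difference Gjb2 minus Gjb5 from -0.72 to 0.14. With the replicate number as a block, Gjb5 had 0.82 (limma adjusted p = 0.00590) and 3 member genes passed; the block moved all calls only to 11525, from 11210. With probe sets required above the 40th percentile on all 4 arrays, 1 other channel gene passed in place of 2. The reason was that Gja3, dim in controls, was no longer tested. Without the filter 3 of 13 tested channel genes passed, while 10142 of all 45037 tested probe sets did. The added gene was Panx3, on a probe set below the 40th percentile on every array (limma adjusted p = 0.0203). Its other probe sets, also dim, did not pass (limma adjusted p = 0.144 and 0.895). With median centring 4464 probe sets were higher and 7059 lower, against 5386 and 5824 in the main setting. For the other changes given here the cause was not tested.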
